A study of Schizosaccharomyces pombe with 4 samples.

Results

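Besides the mRNAs and structural RNAs that the authors' annotation names, the cDNAs recovered with Mkt1 in fission yeast (Schizosaccharomyces pombe) fell on stretches of the genome where that annotation has no gene. The regions described here are those stretches on chromosomes I, II and III, outside the ends of chromosome III that hold the ribosomal DNA and outside 2 stretches, each after an mRNA, that were set aside in advance. Overlapping cDNAs of 1 strand were joined, which gave 213 clusters with 1260 of the 61252 distinct cDNAs of the 4 libraries. They are 1260 of the 3183 cDNAs on no gene of the authors' annotation, most of the others being at the rDNA ends. On chromosome III the limits lay far from any doubtful cDNA, as the outermost clusters ended at 2382054 and began at 207172, whereas the nearest cDNAs left out began at 2439698 and ended at 23519.

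The libraries came from CRAC, which fixes proteins to RNA in living cells with UV light, pulls 1 protein out by its tag under harsh washing, and sequences the bound RNA fragments as cDNA. There were 2 libraries from h+ cells whose Mkt1 carried the HTP tag (mkt1-HTP-KanR) and 2 from an untagged h+ strain, in which whatever is purified is background. Both strains carried the centromeric reporter otr1R(Sph1):ade6+ along with ade6-210, leu1-32 and ura4D18, and both were kept in PMG medium without tryptophan at 32 °C before 42.5 s of irradiation. Each group is 1 strain. The methods call the 2 libraries of a group biological replicates, and the labels say no more about the cultures behind them.

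The Mkt1-HTP libraries 1 and 2 held 24468 and 26899 distinct cDNAs, against 1743 and 8142 in the control libraries 1 and 2. In distinct cDNAs the tagged library was thus 14.0 times as large as the control in number 1 and 3.30 times in number 2. The authors' totals of mapped cDNAs were 544192 and 483073 in the Mkt1-HTP libraries, against 27996 and 135763 in the control. Control 1 had only 229 cDNAs outside rRNA, and control 2 had 910, against 14905 and 13687 in Mkt1-HTP. A cluster with few cDNAs in Mkt1-HTP would not be detectable in the control at this depth.

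A reverse transcriptase that meets a cross-linked base often skips it, so that a deletion in a CRAC cDNA marks a likely contact between the RNA and a protein. Fission yeast mRNAs end in a 3′ untranslated region and an added poly(A) tail, and many genes are read into transcripts longer than the annotated one. The S. pombe genome also holds long runs of A, on either strand. Mkt1 is a post-transcriptional regulator, and Ath1, with which it acts, is the counterpart of budding yeast Pbp1, a partner of the poly(A)-binding protein.

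The clusters differed above all in sequence. Read on the strand of the cDNA, 66 held a run of 15 or more A, 25 a run of 15 or more T, and 122 neither, and these are called A run, T run and mixed clusters below. This division was made after the sequences had been seen, and it is used to describe the clusters, not to test them. The sequences below, from the RefSeq genome ASM294v3, show the A run clusters with the most cDNAs and the mixed clusters in which 1 base was deleted most often. Each line gives 30 bases, 5′ to 3′ on the strand of the cDNAs, and the A run of the first 4 goes on past the end of the line. Capitals mark the A run in the first 4 lines and the most often deleted base in the other 4.
III:2067827-2067856, plus strand, between wtf21 and amt1: aagaaagaaattAAAAAAAAAAAAAAAAAA
I:934897-934926, plus strand, in lncRNA SPNCRNA.2411: aattttttttttAAAAAAAAAAAAAAAAAA
I:5557301-5557330, minus strand, near a chromosome end: ttgatatttAAAAAAAAAAAAAAAAAAAAA
II:2443187-2443216, minus strand, between genes: acagtAAAAAAAAAAAAAAAAAAAAAAAAA
I:1733413-1733442, plus strand, after amt2: attataattttaaggTtttttttttgttaa
I:4510850-4510879, minus strand, after mei2: ttcacttcaaatataTgatgttaatttatg
II:1745304-1745333, minus strand, after clg1: attgcgattttccaaCtcccaaactgtttg
II:1745657-1745686, minus strand, after clg1: tttgctttctcgtgtGgctttgttatctat
All 4 A run lines have a T directly before the run, and the mixed lines share no obvious letters around the deleted base. In the line after amt2 the marked T opens a run of 10 T, and the deleted base cannot be placed within it.

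The clusters took a larger share of both Mkt1-HTP libraries than of either control library. They held 874 of the cDNAs in Mkt1-HTP 1 and 357 in Mkt1-HTP 2, against 0 in control 1 and 29 in control 2. As shares of all distinct cDNAs these are 3.57% (Wilson 95% interval 3.35 to 3.81) and 1.33% (1.20 to 1.47) in the Mkt1-HTP libraries, against 0 and 0.356% (0.248 to 0.511) in the control. The count of 0 among the 1743 cDNAs of control 1 allows a share of up to 0.172%. Both Mkt1-HTP libraries lay above both control libraries, and the means were 2.45% ± 1.59 in Mkt1-HTP and 0.178% ± 0.252 in the control (SD, n = 2 each). The difference of 2.27 percentage points had an exact permutation p of 0.333 (two-sided), which is the smallest that 2 libraries against 2 allow. The intervals cover counting error only, and the Mkt1-HTP libraries themselves differed 2.69-fold.

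The comparison in number 2 depended on the denominator, since rRNA filled most of the control libraries. Among cDNAs outside rRNA the clusters held 5.86% (5.50 to 6.25) and 2.61% (2.35 to 2.89) in the Mkt1-HTP libraries, against 0 (limit 1.31%) in control 1 and 3.19% (2.23 to 4.54) in control 2. On this scale the groups overlapped. The A run clusters alone held 4.12% and 1.42% of these cDNAs in the Mkt1-HTP libraries, against 0 and 0.659% in the control. Mixed clusters held 1.68% and 1.02% in the Mkt1-HTP libraries, against 0 and 1.65% in the control, so that here too control 2 lay above Mkt1-HTP 2.

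The cluster cDNAs of control 2 were shorter. They had a median length of 23 nt, against 38 nt in each Mkt1-HTP library, and 21 of the 24 clusters with a control cDNA had a near-identical copy elsewhere in the genome (90% identity over 80% of the cluster). Over all clusters 121 of 213 (56.8%) had one, among them 84.8% of A run and 96% of T run clusters. Of the 17 clusters seen in control 2 alone, 16 had such a copy, and their median length was 20 nt. The 81 mixed clusters without a copy elsewhere held 225 and 116 cDNAs in the Mkt1-HTP libraries, against 0 and 4 in the control. This subset is in part set by length, as mixed clusters without a copy had a median of 47 nt and those with one 22 nt, and clusters are built mostly from Mkt1-HTP cDNAs, so nothing is read from the comparison. As shares of cDNAs outside rRNA the counts are 1.51% and 0.848% in the Mkt1-HTP libraries, against 0 and 0.440% (0.171 to 1.12) in the control. For clusters with a copy, the cDNAs may come from any of the copies, and which one cannot be told apart.

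**Figure D1:**
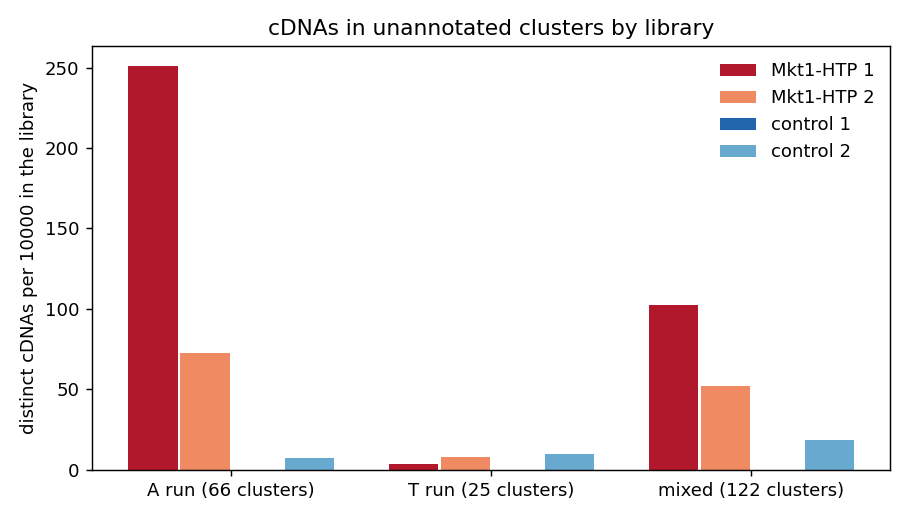
Distinct cDNAs in the clusters per 10000 distinct cDNAs of each library (vertical axis), for A run, T run and mixed clusters, with 1 bar per library. A run clusters stood at 250.9 and 72.5 in the Mkt1-HTP libraries, against 0 and 7.37 in the control, whereas T run clusters stood at 3.68 and 8.18 against 0 and 9.83.

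The clusters were short. Their length had a median of 36 nt (range 17 to 118), with medians of 36.5 nt for A run, 33 nt for T run and 38 nt for mixed clusters. The cDNAs in them were shorter than the others, with medians of 38 nt against 54 nt for all other cDNAs in both Mkt1-HTP libraries. Of the 213 clusters 91 rested on 1 cDNA, and 28 had 10 or more. The 12 clusters with the most cDNAs held 585 cDNAs (46.4%), 10 of them were A run clusters, and 11 had cDNAs in both Mkt1-HTP libraries. Both strands were about equally represented.

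Agreement between the Mkt1-HTP libraries was higher for the A run clusters than for the mixed ones. The A run clusters also held more cDNAs, 815 in 66 clusters against 406 in 122, and a cluster with more cDNAs is more easily seen in both. In all, 43 clusters had cDNAs in both Mkt1-HTP libraries, 28 had 2 or more in each, and 6 had 10 or more in each, which is the minimum the study asked of a replicate. Of the 66 A run clusters 32 (48.5%) were in both, of the 25 T run clusters 4 (16%), and of the 122 mixed clusters 7 (5.74%). With 10 or more cDNAs in Mkt1-HTP, all 23 A run clusters were in both libraries but only 1 of 5 mixed clusters was. Among those 23, Mkt1-HTP 1 gave from 36.4% to 95.5% of the Mkt1-HTP cDNAs of a cluster. The 6 clusters with 10 or more in each library were all A run clusters. Since clusters were built from the cDNAs of all libraries together, no test of this recurrence was made.

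**Figure D2:**
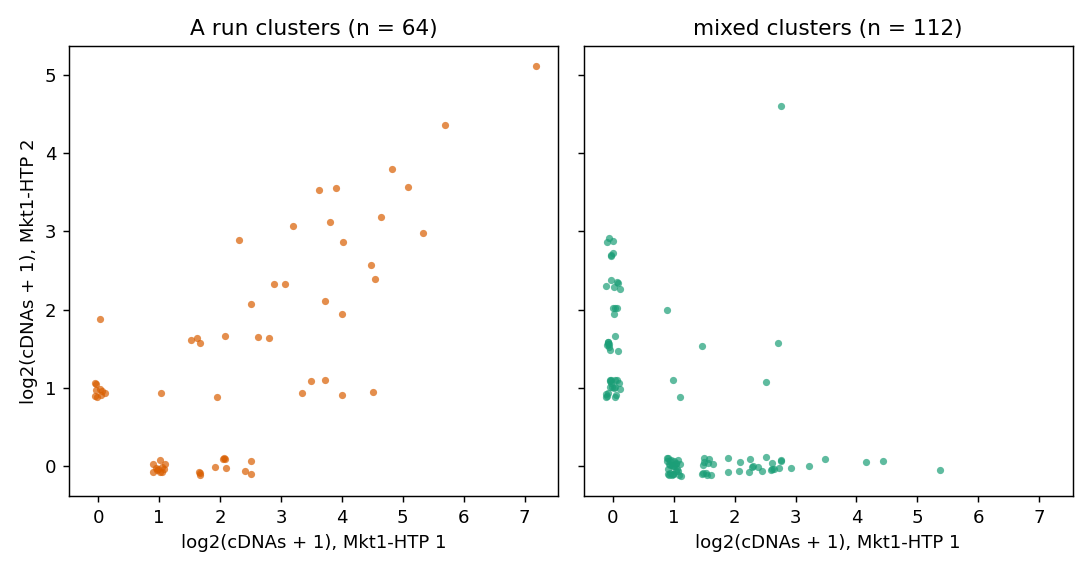
Each point is 1 cluster, placed by log2(cDNAs + 1) in Mkt1-HTP 1 (horizontal) and Mkt1-HTP 2 (vertical), with a small random shift so that equal counts can be told apart. The 64 A run clusters found in Mkt1-HTP include 32 away from both axes, whereas of the 112 mixed clusters all but 7 lie along 1 axis.

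The same held for single cDNAs. Of the distinct intervals in A run clusters, 79 were identical in both Mkt1-HTP libraries, or 13.2% of those of Mkt1-HTP 1 and 41.6% of those of Mkt1-HTP 2. In mixed clusters 1 interval was shared (0.450% of those of Mkt1-HTP 1 and 0.752% of those of Mkt1-HTP 2). Control 2 shared 3 of its 6 A run intervals with Mkt1-HTP 1 and 2 of them with Mkt1-HTP 2. Many intervals within a library were also near-identical. With cDNAs whose ends both lay within 3 nt of each other counted once, the 1260 cDNAs came down to 468, those of A run clusters to 257 and those of mixed clusters to 175. Of the 122 mixed clusters, 90 then rested on 1 cDNA.

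The cluster with the most cDNAs lay at III:2067810-2067875 on the plus strand, between wtf21, of a family of spore killer genes, and amt1, an ammonium transporter gene, and opposite the lncRNA SPNCRNA.7615. It had 144 and 31 cDNAs in the Mkt1-HTP libraries, against 0 and 1 in the control. The ratio of the pooled shares was 33.7, with an exact counting interval of 5.97 to 1338 that reflects the single control cDNA. The edgeR fit gave a log2 fold change of 5.07 ± 1.66 (approximate SE) and an edgeR adjusted p of 0.0528. This was the closest any cluster came to the threshold of 0.05 in that fit. The log2 fold change was 2.81 with library sizes outside rRNA, 2.21 with near-identical cDNAs counted once, and between 3.50 (without Mkt1-HTP 1) and 8.96 (without control 2) with 1 library left out. The cluster held an A run of 31 nt and had no copy elsewhere. It made up 16.5% of the cluster cDNAs of Mkt1-HTP 1 and 8.68% of those of Mkt1-HTP 2.

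Next came I:934894-934940 on the plus strand, inside the lncRNA SPNCRNA.2411, with 54 and 18 cDNAs in Mkt1-HTP and none in either control. Its share in Mkt1-HTP was at least 4.62-fold higher, set against a floor of 3 counts over both control libraries, and the edgeR adjusted p was 0.113. The minus strand cluster I:5557284-5557330, near a chromosome end, had 34 and 11 in Mkt1-HTP and none in the control, at least 2.89-fold higher (edgeR adjusted p = 0.297). II:2443173-2443216, with the longest run (36 nt), had 37 and 7 and none in the control, at least 2.82-fold higher (edgeR adjusted p = 0.299). These bounds rest on all cDNAs as the denominator. Over the 28592 and 1139 cDNAs outside rRNA of Mkt1-HTP and of the control, the same floor gave no bound above 1 for any of the 3. Each was seen in both Mkt1-HTP libraries and in no control library, and none passed the threshold. In the order named they had 3, 5 and 29 near-identical copies elsewhere in the genome, from which their cDNAs may also come.

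Most of the other A run clusters among those with the most cDNAs also had cDNAs in both Mkt1-HTP libraries and none in the control. They were picked by their total, which comes mostly from Mkt1-HTP, and the control had 1139 cDNAs outside rRNA against 28592 in Mkt1-HTP. Nothing is therefore read from the lack of control cDNAs. I:4179699-4179745, on the minus strand 216 nt after isp7, had 27 and 14 cDNAs in Mkt1-HTP and none in the control. II:4107253-4107304 had 23 and 8, II:46905-46961 had 22 and 5, II:3175921-3175966 had 15 and 11, and I:4414712-4414753 had 12 and 11, all with none in the control. From I:4179699-4179745 to I:4414712-4414753 the edgeR adjusted p lay between 0.330 and 0.392. The exception was I:1027631-1027675, a plus strand cluster 317 nt before ssd2. It had 23 and 4 cDNAs in the Mkt1-HTP libraries, against 0 and 2 in the control, a ratio of 2.60 with a counting interval of 0.653 to 22.5 (edgeR log2 fold change 1.55 ± 1.79, edgeR adjusted p = 0.508). No cluster had more than 2 cDNAs in a control library.

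In the fit across all features, none of the clusters passed. The features were 420 annotated genes and 28 clusters with 10 or more cDNAs over the 4 libraries, and edgeR's quasi-likelihood test called 2.46% of the 448 higher in Mkt1-HTP (11 features) and 1.56% lower (7 features), at an adjusted p of 0.05. Of the clusters 0 were called. An unadjusted edgeR p under 0.05 was found for 7 of the 28 clusters and for 59 of all 448 features. All 28 clusters had a higher value in Mkt1-HTP. DESeq2 also called 0 clusters, with 2 clusters at an unadjusted p under 0.05, as were 24 of all 448 features. Both Mkt1-HTP libraries lay above both control libraries for 22 of the 28 clusters, where 56.2% of all 448 features did so. A cluster reached 10 cDNAs almost only through Mkt1-HTP, so nothing is read from these counts or from their direction. The p-values measure the spread between libraries, which was pooled over all features.

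Recovery of an A run followed its length. On chromosomes I, II and III outside the rDNA the genome holds 338 runs of 15 to 39 A, counting both strands and annotated genes too. Of the 197 runs of 15 to 19 nt, 10 (5.08%) were overlapped by an A-sense cDNA in Mkt1-HTP. This came to 34 of 74 runs of 20 to 24 nt (45.9%), 39 of 45 of 25 to 29 nt (86.7%) and all 22 of 30 to 39 nt. In the control the numbers were 1, 2, 1 and 3 runs. The number of runs reached depends on depth, and the control had 1139 cDNAs outside rRNA against 28592 in Mkt1-HTP. The coverage of the groups is therefore not on 1 scale. All lengths together, these runs had 889 and 298 A-sense cDNAs in the Mkt1-HTP libraries, against 0 and 9 in the control, and 46 runs had them in both Mkt1-HTP libraries.

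A-sense cDNAs prevailed in Mkt1-HTP. T-sense cDNAs over the same runs numbered 26 and 65 in the Mkt1-HTP libraries, against 1 and 18 in the control, so that A-sense cDNAs outnumbered T-sense ones in both Mkt1-HTP libraries but not in control 2, while control 1 had only 1 cDNA of either sense. Of the 22 longest runs 13 (59.1%) had a T-sense cDNA in Mkt1-HTP and 4 (18.2%) in the control. T run clusters were mostly the other strand of A run clusters, since 17 of the 25 lay opposite one. The T run clusters had 9 and 22 cDNAs in the Mkt1-HTP libraries, against 0 and 8 in the control. Per 10000 cDNAs, those are 3.68 and 8.18 in the Mkt1-HTP libraries, against 0 and 9.83 in the control, and the groups overlapped. Among cDNAs outside rRNA the T run clusters held 0.0604% (0.0318 to 0.115) and 0.161% (0.106 to 0.243) in the Mkt1-HTP libraries. In the control they held 0 (limit 1.31%) and 0.879% (0.446 to 1.725), so that control 2 lay above both Mkt1-HTP libraries.

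**Figure D3:**
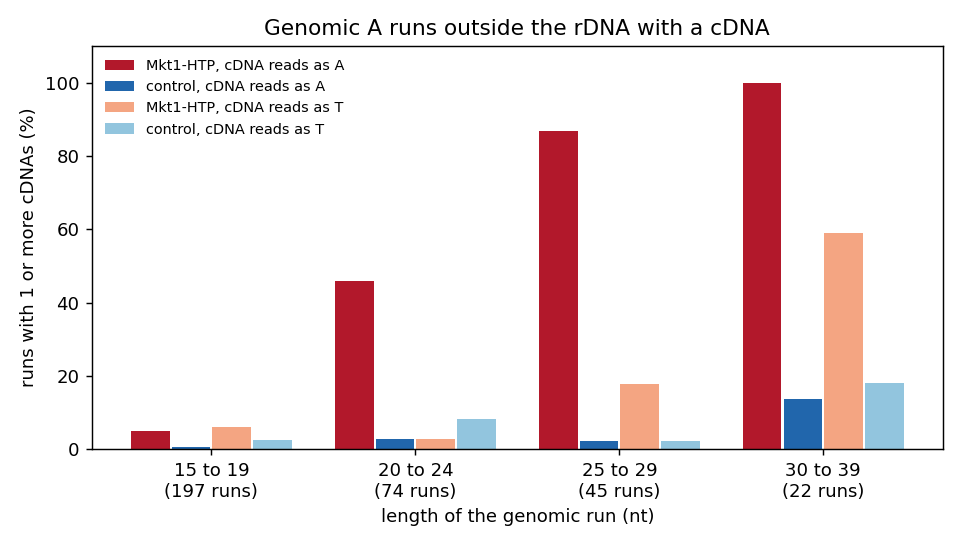
Share of the genomic A runs outside the rDNA that were overlapped by 1 or more cDNAs (vertical axis, percent), by run length in nt (horizontal axis, number of runs in brackets), for cDNAs that read as A and as T in Mkt1-HTP and in the control, the 2 libraries of a group pooled. A-sense coverage in Mkt1-HTP went up with length through 5.08%, 45.9%, 86.7% and 100%, while A-sense coverage in the control stayed at 13.6% or below. Coverage depends on depth, which was 28592 cDNAs outside rRNA in Mkt1-HTP and 1139 in the control, so the groups are not on 1 scale.

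Most cDNAs with an A run ended at or near the end of the run. In Mkt1-HTP 1 the 610 cluster cDNAs with an A run had a median of 6 nt before it, 29 nt of run and 0 nt after it, and 93.1% had 5 nt or fewer after it. In Mkt1-HTP 2 the 192 such cDNAs had medians of 6, 29 and 1 nt, and 83.3% had 5 nt or fewer after the run. The 6 such cDNAs of control 2 were alike, with medians of 2.5, 28.5 and 1 nt and 5 of 6 with 5 nt or fewer after it. In Mkt1-HTP 44.1% and 49.5% also had 5 nt or fewer before the run. A made up a median of 89.5% and 88.3% of their bases. The deposited files give coordinates and not the bases read, so that genomic A cannot be told apart from A added after transcription and aligned to a genomic run. Cluster cDNAs carried such runs far more often than cDNAs on annotated genes and elsewhere, at 69.8% and 53.8% in Mkt1-HTP and 20.7% in control 2, against 1.19%, 0.409% and 0.0376% of the other cDNAs of the same libraries. In control 1 no cDNA of either sort held one.

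By place, the A run clusters were scattered. Of the 66, 46 overlapped no gene of the RefSeq annotation on either strand, 14 lay inside an annotated lncRNA, and 9 (13.6%) lay within 500 nt after the 3′ end of an mRNA of the same strand. Positions of that kind make up 17.1% of all strand positions outside protein-coding genes. A near-identical copy was found elsewhere for 56 of them, as it was for 24 of the 25 T run clusters.

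The mixed clusters, in contrast, gathered behind mRNAs. Of the 122, 64 (52.5%) lay within 500 nt after the 3′ end of an mRNA of the same strand, and these held 71.9% of the cDNAs of mixed clusters. They had 187 and 103 cDNAs in the Mkt1-HTP libraries, against 0 and 2 in the control. The other 58 mixed clusters had 64 and 37 in the Mkt1-HTP libraries, against 0 and 13 in the control. Ends of mRNAs are those of RefSeq, whose genes reach further in places than those of the authors' annotation. Thus 4 clusters lay inside a RefSeq mRNA, 2 of them in atd1, an aldehyde dehydrogenase gene, and 1 each in hhf1, which encodes histone H4, and trm11, a tRNA methyltransferase gene.

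**Figure D4:**
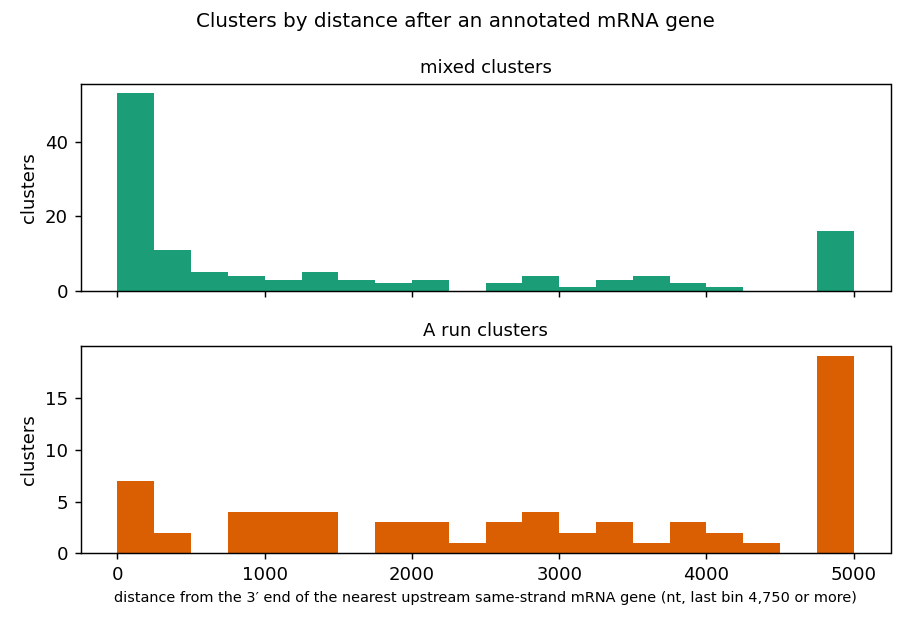
Number of clusters (vertical axis) by distance in nt from the 3′ end of the nearest upstream mRNA gene on the same strand (horizontal axis, bins of equal width, with all larger distances in the last bin), for mixed clusters (upper panel) and A run clusters (lower panel). The median distance was 423 nt for mixed clusters and 2910 nt for A run clusters.

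With the window widened to 1000 nt, mixed clusters lay after 56 mRNAs, and 10 of these mRNAs had more than 1 cluster. Most of these stretches, 46 of 56, were seen in 1 Mkt1-HTP library alone, and 9 in both. Of the 10 with several clusters 8 were seen in both, and of the 46 with 1 cluster 1 was, but 14 of these 46 rested on 1 cDNA and could not be in both. After only 1 of the 56 was there a control cDNA. Of the mRNAs themselves, 28 had cDNAs of their own in Mkt1-HTP and 37 had fewer than the clusters after them. Only cDNAs on 1 RefSeq gene were counted for an mRNA, so those shared with an overlapping gene of the same strand are left out.

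The stretch after clg1, a cyclin-like gene, had the most cDNAs of those seen in both libraries. Its 3 clusters, 71 to 563 nt after the annotated end, had 17 and 23 cDNAs in Mkt1-HTP and none in the control, beside 14 and 7 in the mRNA itself. The cluster II:1745285-1745393 had 6 and 23, the cluster II:1745620-1745706 had 10 and 0, and II:1745193-1745214 had 1 and 0. After pac2, a gene that acts against mating, 4 clusters had 18 and 12 cDNAs in Mkt1-HTP and none in the control, and the mRNA had 3 and 5. None of these 4 was seen in both libraries, as I:3007136-3007207 had 16 and 0, I:3007268-3007336 had 0 and 7, I:3006959-3007016 had 0 and 5, and I:3007406-3007468 had 2 and 0. After pac2 both libraries thus had cDNAs in the stretch but not in the same cluster, whereas after clg1 they shared 1 cluster of 3.

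Other stretches held fewer cDNAs. After mpc2, of the mitochondrial pyruvate carrier, 3 clusters had 6 and 10 cDNAs in Mkt1-HTP and none in the control, while the mRNA had 0 and 1. After uvi15, a gene induced by UV light, 3 clusters had 9 and 6 in Mkt1-HTP and none in the control, beside 8 and 11 in the mRNA. After mpg1, which encodes mannose-1-phosphate guanylyltransferase, and after SPAC212.08c, 3 clusters each had 6 and 3 in Mkt1-HTP and none in the control. Single clusters of 5 or 6 cDNAs, all from Mkt1-HTP 1, followed hta2, a histone H2A gene, at 4 nt, pfl2, a flocculin gene, at 5 nt, and gpd1, a glycerol-3-phosphate dehydrogenase gene, at 164 nt. After mat1-Mi, a mating-type gene of the reference sequence, 2 clusters had 0 and 8 cDNAs in Mkt1-HTP. The strains were h+, so this reference sequence may differ from theirs there.

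The largest mixed cluster was in 1 library alone. I:1733413-1733480, on the plus strand 145 nt after amt2, another ammonium transporter gene, had 42 cDNAs in Mkt1-HTP 1, 0 in Mkt1-HTP 2 and none in the control (edgeR adjusted p = 0.306). With near-identical cDNAs counted once, 5 of the 42 were left. I:4510846-4510944, on the minus strand 39 nt after mei2, which encodes an RNA-binding protein needed for meiosis, had 19, 0 and none (edgeR adjusted p = 0.420), and 3 of the 19 were left. The mRNAs had 0 and 2 cDNAs for amt2 and 6 and 2 for mei2 in Mkt1-HTP. Both clusters thus rest on a few groups of near-identical cDNAs of Mkt1-HTP 1.

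The 7 mixed clusters seen in both Mkt1-HTP libraries had few cDNAs apart from the one after clg1. I:987827-987932 had 6 and 2, III:2014027-2014073, which is 27 nt after mpg1, had 5 and 1, and I:13039-13101, which is 45 nt after SPAC212.08c, had 1 and 3. I:4699564-4699597, at the end of hhf1, had 2 and 2, whereas I:3573243-3573285 had 1 and 1. So did I:4656471-4656534, which is 15 nt after ade2, a purine synthesis gene. None had a control cDNA.

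Deletions were more frequent in mixed than in A run clusters of both Mkt1-HTP libraries. Of the cDNAs of mixed clusters 51 of 251 (20.3%, 15.8 to 25.7) had a deletion in Mkt1-HTP 1 and 27 of 140 (19.3%, 13.6 to 26.6) in Mkt1-HTP 2, against 0 of 15 in control 2, with an upper Wilson bound of 20.4%. In A run clusters the numbers were 22 of 614 (3.58%, 2.38 to 5.37) and 11 of 195 (5.64%, 3.18 to 9.82) in the Mkt1-HTP libraries, against 0 of 6 in control 2. The 2 kinds also differed in length and bases. Median cDNA lengths in Mkt1-HTP 1 and 2 were 54 and 44 nt in mixed clusters and 37 and 37 nt in A run clusters, whose cDNAs were mostly A. Whether this bears on the shares was not tested. Over all clusters 8.47% and 10.9% of cDNAs had a deletion in the Mkt1-HTP libraries, against 0 of 29 in control 2 (upper Wilson bound 11.7%), and control 1 had no cluster cDNA. This difference of 9.70 percentage points had an exact permutation p of 0.333 (two-sided), the smallest that 2 libraries against 1 allow.

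Among all other cDNAs 13.1% and 25.5% had a deletion in the Mkt1-HTP libraries, against 12.3% and 27.8% in the control. There the share went with the library number, but most of these control cDNAs were rRNA. Outside rRNA the shares were 13.0% and 24.3% in the Mkt1-HTP libraries, against 6.11% and 21.1% in the control. Each Mkt1-HTP library then lay above the control of the same number. The shares in mixed clusters rest on few groups of near-identical cDNAs. In Mkt1-HTP 1, 17, 12 and 8 of the 51 deleted cDNAs came from the clusters after amt2, after mei2 and II:1745620-1745706 after clg1, which came down to 5, 3 and 4 cDNAs when near-identical ones were counted once. Counted so, 10 of 99 (10.1%) and 8 of 63 (12.7%) cDNAs of mixed clusters had a deletion in Mkt1-HTP 1 and 2, and 4 of 163 (2.45%) and 2 of 88 (2.27%) of A run clusters. The cDNA kept was the first by position, with or without a deletion, so these are not shares of groups that held a deletion.

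**Figure D5:**
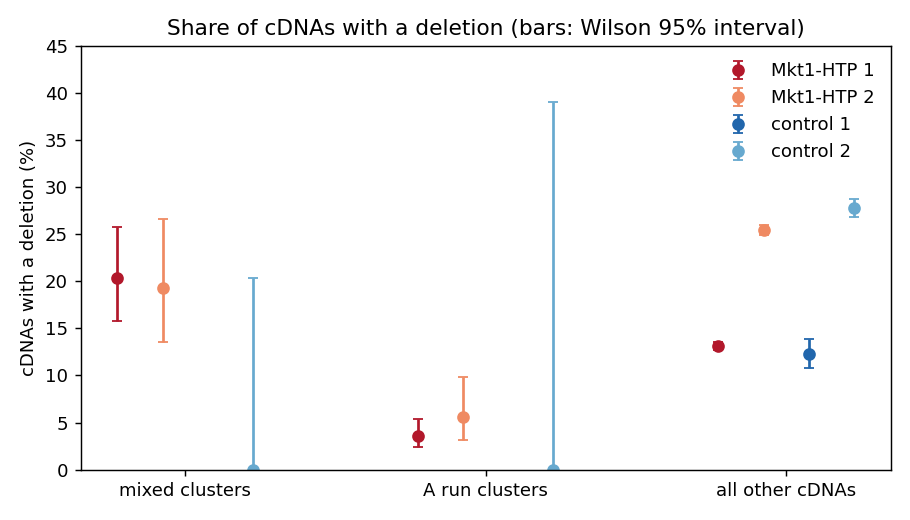
Share of cDNAs with a deletion in percent (vertical axis) in mixed clusters, in A run clusters and in all other cDNAs, 1 point per library with its Wilson 95% interval. Control 1 has a point only among the other cDNAs, since it had no cluster cDNA.

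A few clusters held most of the deletions. Of the 213 clusters 22 had any, among them 18 mixed and 3 A run clusters. In the mixed clusters, 4 clusters held 49 of the 78 cDNAs with a deletion. In the A run clusters, 2 held all but 1 of the 33. The cluster at III:2067810-2067875 had 17 and 6 deleted cDNAs in Mkt1-HTP, and II:847454-847535, whose run of 15 A is the shortest counted, had 9 over both. The remaining A run clusters had 1 cDNA with a deletion among 624.

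In all, 82 positions were deleted in at least 1 cDNA, all in Mkt1-HTP, and 10 of them in both Mkt1-HTP libraries. In A run clusters 8 of 15 deleted positions were deleted in both libraries. In mixed clusters the cDNAs of both libraries covered only 1 of the 64 deleted positions, so that recurrence could not be seen there. In III:2067810-2067875 the G at 2067829, in the bases printed before the run, was deleted in 4 of 112 and 4 of 25 cDNAs in Mkt1-HTP, and the G at 2067833 in 6 of 130 and 2 of 28. In II:847454-847535, inside lncRNA SPNCRNA.4900, the G at 847490 was deleted in 3 of 8 and 5 of 7. All 8 positions of the A run clusters lay outside the longest run of A of their cluster. The other 2 positions deleted in both libraries were 847490 and 847491 on the minus strand, in the T run cluster II:847458-847529. There the 1 cDNA of each Mkt1-HTP library had both deleted, so the same coordinates had deletions on both strands. Positions are counted per strand, and the source of deletions found on both strands was not tested.

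In some mixed clusters single bases were deleted in a large part of the cDNAs of 1 library. After amt2 the T at 1733428 was deleted in 14 of 42 cDNAs of Mkt1-HTP 1. It is the first of a run of 10 T, so which T of the run was deleted cannot be told apart. After mei2 the T at 4510864 was deleted in all 12 cDNAs of Mkt1-HTP 1 that covered it, and after clg1 the G at 1745671 in 8 of 10. Also after clg1, the C at 1745318 was deleted in 10 of 19 cDNAs of Mkt1-HTP 2. No cDNA of the other Mkt1-HTP library covered any of these 4 positions. T made up 53.3% and 23.4% of the deleted bases of mixed clusters in Mkt1-HTP 1 and 2, beside 42.5% and 42.2% of all bases of those cDNAs. For the other cDNAs T was 51.8% and 57.2% of the deleted bases in the Mkt1-HTP libraries, against 55.3% and 56.8% in the control.

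Few of the 213 clusters lay in heterochromatic regions or annotated repeats. The part of the genome that such regions make up was not set beside these counts, so no depletion is read from them. There were 4 at centromeres, with 1 and 2 cDNAs in the Mkt1-HTP libraries, against 0 and 1 in the control, and 6 within 30000 nt of a chromosome end, with 40 and 14 against 0 and 2. Most of the cDNAs near chromosome ends were those of the A run cluster I:5557284-5557330 described above. The mating-type region held 1 cluster, with 0 and 1 cDNAs in the Mkt1-HTP libraries and none in the control. A further 10 clusters lay inside long terminal repeats, the ends of retrotransposons, with 6 and 4 cDNAs in Mkt1-HTP and none in the control. Of the structural RNAs, snu4, which encodes the U4 snRNA, overlapped 1 cluster of 1 cDNA, and 1 cluster of 2 cDNAs lay next to a tRNA gene. No cluster had a copy in a tRNA gene, and 2 had a copy in rRNA.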

How the data were processed

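The authors took out tRNA reads with STAR 2.7.1a, aligned the rest to ASM294v2 by Novoalign 3.09.02 and ran pyReadCounters (Counters 1.4.4) with deletions as the only mutations kept, per the labels, the headers and the published methods. Every line of the deposited tables is 1 cDNA with a count of 1. A cDNA here is therefore a distinct interval or deletion pattern, not a read. The members, lists and tests were chosen with earlier results of these data known. The limits of the member rule were read as limits on chromosome III, where the rDNA lies, and on all 3 chromosomes as an alternative.

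Clusters were set against RefSeq genes of ASM294v3, in which 1699 of the 1700 gene identifiers of the files were found. Centromere intervals were set by hand. Copies were searched with BLAST 2.17.0. Counts of clusters and of genes by strand (cDNAs on 1 gene only) were tested with glmQLFit and glmQLFTest of edgeR 4.0.16 in R 4.3.3 (group as the only term, all distinct cDNAs as the library size, common dispersion 0.954), with a minimum of 10 cDNAs and Benjamini-Hochberg adjustment over all 448 features. The script was tested on simulated counts. The value after ± for an edgeR log2 fold change is an approximate SE, that change divided by the square root of its F statistic. DESeq2 1.42.0 was an alternative. Wilson and exact intervals (95%) came from scipy 1.17.1. The clusters named are the 12 with the most cDNAs, those called, up to 8 with 2 or more cDNAs in both Mkt1-HTP libraries and none in the control, and up to 6 with the most cDNAs deleted at 1 base. Other clusters were chosen after their values were seen.

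Titles gave the replicate numbers. The adapters named for numbers 1 and 2 differ between 2 of the labels, though the pairs stay the same. Same-numbered libraries shared a sequencing index, which pairs them. Over 448 features their deviations from the group means correlated at 0.0588, and over 27 features with 10 or more control cDNAs at -0.0292 (across features, which are not independent). Neither pair of replicates was 1 library deposited again (chi-square over its degrees of freedom 7.87 in Mkt1-HTP and 8.93 in the control).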

Additional observations from a re-analysis of the deposited data

Results flagged for a closer look

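The 2 stretches set aside from the clusters carried a signal in Mkt1-HTP above the control. The stretch after cho1, a phospholipid methylation gene, had 172 and 140 cDNAs in Mkt1-HTP, against none in either control library, a mean of 61.2 per 10000 distinct cDNAs in Mkt1-HTP. The stretch after fol2, a folate synthesis gene, had 86 and 36 in Mkt1-HTP and none in either control library, a mean of 24.3 per 10000. Each held more cDNAs in Mkt1-HTP 2 than any of the 213 clusters, of which the highest there had 31. No explanation was tested.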

How the results depend on the processing

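The number of clusters past the threshold was 0 with TMM factors, library sizes outside rRNA, DESeq2, other minimums, near-identical cDNAs counted once and rows up to 50 nt apart joined, and 1 with the limits on all 3 chromosomes (III:2067810-2067875, edgeR adjusted p = 0.0453). With the replicate block, that is, with the pairing of same-numbered libraries in the fit, it was again 0, with a smallest edgeR adjusted p of 0.566 among the clusters. Leaving out 1 library gave 0 to 4 clusters, with 4 without control 1 and 1 without control 2. Over all features the 11 higher calls became 4 with the block, 0 with TMM factors or library sizes outside rRNA and 30 without control 1. The log2 fold change of I:1027631-1027675 turned to -0.77 with library sizes outside rRNA. The 43 clusters in both Mkt1-HTP libraries became 22 with the limits on all 3 chromosomes, 19 with near-identical cDNAs counted once and 2 or more left in each, 28 and 6 with at least 2 and at least 10 in each, and 7 (chosen after seeing the data) without clusters with an A or T run. The difference in share between Mkt1-HTP and the control kept its sign under the alternatives tried, between 0.681 and 3.39 percentage points, with 0.681 for mixed clusters alone and 1.15 without Mkt1-HTP 1. The difference in deletion share stayed between 5.99 and 19.8 points, and it could not be had without control 2, the only control with cluster cDNAs. The depth of the control limits all of these.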
